A study of Mus musculus with 16 samples.

Results

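Pre-mRNA splicing factors were followed in tumour CD11b+ cells through every gene whose symbol begins with Srsf, Hnrnp, Snrp, Sf3a, Sf3b or Lsm, a rule that uses no measured value. It found 66 of the 24421 genes counted. These were 11 Srsf genes, 20 Hnrnp genes, 12 Snrp genes, 3 Sf3a genes, 6 Sf3b genes, 13 Lsm genes and Lsmem1, a membrane protein gene that shares only the letters and was kept out of the Lsm summaries. A total of 62 members had enough counts to be tested, among 9642 genes tested. The 4 untested members were Srsf12, Snrpn, Lsm11 and Lsmem1, with at most 5, 23, 17 and 3 counts in any library, respectively.

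The study used Kaede mice, in which violet light turns the green Kaede protein of host cells red, to ask how myeloid cells change with time spent in a tumour. Female C57BL/6 Kaede mice aged 8 to 14 weeks carried subcutaneous tumours of MC38-Ova, an ovalbumin-expressing mouse colon adenocarcinoma line, which were illuminated on day 13 and collected 24h or 72h later. Living Kaede+ leukocytes (CD45+, TER119-) that were CD11b+ and NK1.1- were sorted, and total RNA was sequenced from 16 libraries, 4 in each of 4 groups (Kaede-green 24h, Kaede-red 24h, Kaede-green 72h and Kaede-red 72h). Kaede-green cells had entered the tumour after illumination and Kaede-red cells had been there since. No animal received a therapy, and all libraries carry the same batch label. The labels call the cells macrophages, whereas the CD11b+ gate can also hold monocytes, neutrophils and dendritic cells. The study describes each point of this experiment as a tumour from an independent mouse, but whether a green and a red library of the same number came from 1 tumour is not given in the sources used here.

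Splicing removes introns in the spliceosome, which is built from small nuclear ribonucleoproteins (snRNPs), each a small nuclear RNA with its proteins. The Snrp genes encode the Sm proteins, which form a ring around most of these RNAs, and proteins specific to the U1 or U2 particle. The LSm proteins form a similar ring on U6, and a related ring takes part in mRNA decay. SF3A and SF3B are the parts of the U2 particle that hold the branch point of the intron. SR proteins (Srsf) and heterogeneous nuclear ribonucleoproteins (Hnrnp) bind the pre-mRNA itself and often act as opposing regulators of exon choice.

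The libraries held 3216858 to 15423085 counts, but Rn45s, the ribosomal RNA precursor, took 79.0% to 93.4% of them in Kaede-green and 55.8% to 84.9% in Kaede-red libraries. The members together received 1510 to 4208 counts in a Kaede-green library and 5473 to 44310 in a Kaede-red library, so the green values carry the larger counting error. The defining myeloid markers were present, with 8 of 8 detected, but their level moved with the groups. Their sum in CPM (counts scaled to the size of the library) was 968 to 2360 in Kaede-green 24h, 641 to 1090 in Kaede-red 24h, 1180 to 1630 in Kaede-green 72h and 1230 to 1540 in Kaede-red 72h. At 72h 5 of the 8 were called higher in red cells and 2 had a log2 fold change below 0. At 24h 2 were called higher and 1 lower, with 4 above and 4 below 0. Fibroblast markers summed to 40.3 to 52.3 CPM in the green libraries of 24h and 45.5 to 49.9 in those of 72h, against 19.9 to 37.4 and 12 to 19.2 in the red ones, and 4 of the 4 tested were lower in red cells at 72h. Neutrophil markers summed to 17.8 to 22.4 in Kaede-red 72h and to 8.6 to 14.3 in the other groups. Endothelial markers summed to 18.9 to 23.2 in red against 11.2 to 16 in green cells at 24h and to 21.9 to 37 against 10.7 to 19.5 at 72h. Of the 3 tested, 2 were called higher in red cells at 72h and over both times. The remaining 1 went the other way, with log2 fold changes of -1.61 at 24h and -1.23 at 72h, and was called lower over both times (-1.42). The part of these marker shifts in the differences below was not tested, and in bulk RNA fewer cells of a type and less RNA per cell cannot be told apart.

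In levels per length, the most abundant member was Hnrnpf, a regulator that binds G-rich sequence, with a mean of 28.6 CPM per kilobase of exon over the 16 libraries, followed by Hnrnpa2b1 with 21. Srsf5 had 15.3 and Srsf3 had 12.4 on the same scale. In the core particles Sf3b6, the small SF3B subunit next to the branch point, had 14.9. The Sm genes Snrpg and Snrpb had 10.6 and 9.77 over all libraries, but their order turned with colour. In Kaede-green cells Snrpg had group means of 16.2 at 24h and 15.6 at 72h against 8.74 and 10.6 for Snrpb, and in Kaede-red cells 6.68 and 4.15 against 9.90 and 9.81. Of the Lsm genes Lsm3 had 9.72 and Lsm4 had 5.52, with Sf3b2 at 6.48, Sf3a3 at 3.61 and Sf3a1 at 2.25. The levels of Hnrnpa2b1 and Snrpb overlapped between red and green cells at both times and were called in no comparison.

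In build mm10, Snrpg lies at chr6:86371304-86379328, Snrpe at chr1:133603871-133610291, Sf3b6 at chr12:4817544-4827659, Srsf3 at chr17:29032628-29043373, Srsf7 at chr17:80200080-80207307 and Hnrnpul1 at chr7:25721165-25754757, by the GENCODE annotation, and counts are per gene.

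The families lay in different directions. Summed over its members, the Snrp family stood at 103 ± 17.5 CPM (SD, n = 4) in Kaede-green 72h and at 64.4 ± 6.20 in Kaede-red 72h, with ranges of 88.2 to 128 and 58.4 to 70.7 that did not overlap. At 24h the same sums were 96.6 ± 10.4 and 84.2 ± 7.37, and their ranges overlapped. The Lsm sum was 53 to 70.5 in Kaede-green 72h against 44.1 to 51.9 in Kaede-red 72h. The Sf3a sum lay the other way, at 16.6 to 22.3 in Kaede-green 72h against 26.1 to 30.1 in Kaede-red 72h. The Hnrnp sums overlapped at both times, at 470 to 645 against 502 to 555 at 72h, as did the Srsf sums, at 136 to 194 against 131 to 139. These sums were compared as descriptions, with no test.

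**Figure D1:**
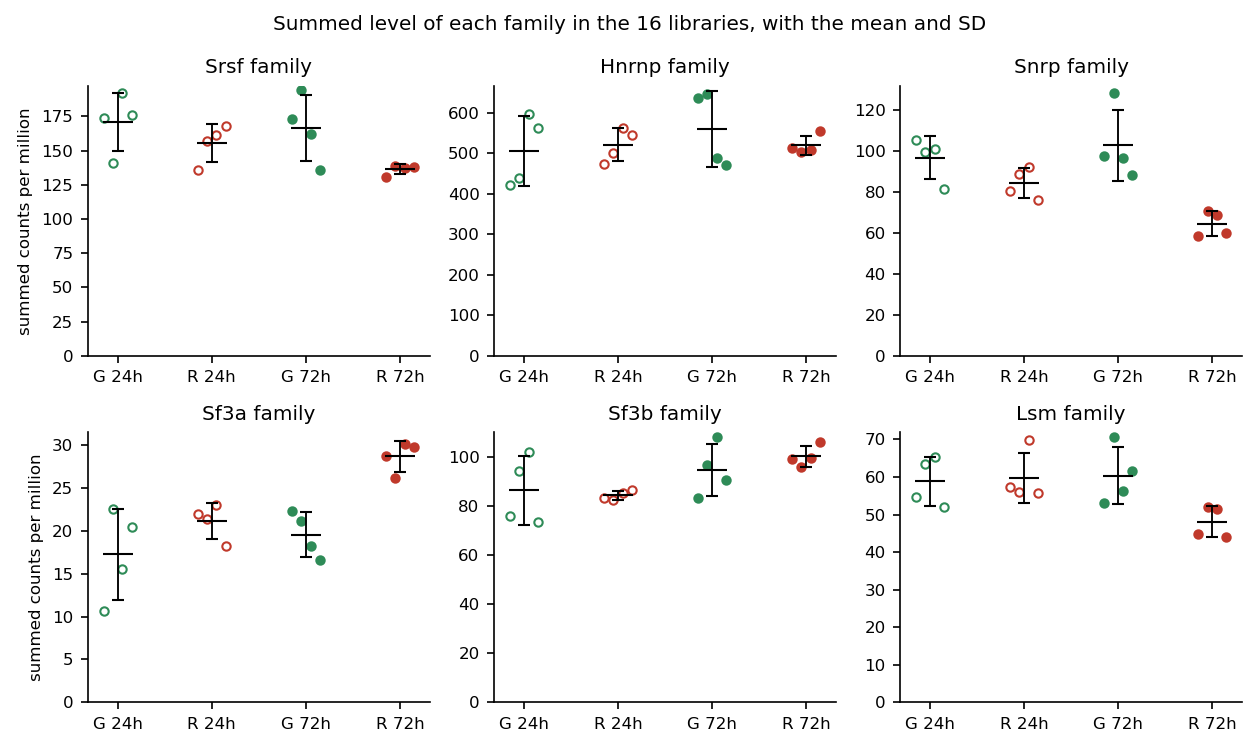
Summed level of each family in normalised CPM, for the 4 libraries (points) of Kaede-green (G) and Kaede-red (R) cells at 24h (open) and 72h (filled), with the mean and SD (bars). The Snrp and Lsm sums of Kaede-red 72h lie below those of Kaede-green 72h, and the Sf3a sums lie above them.

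The level scale sets the sign of such sums. On the scale used above, each library was scaled by the trimmed mean of M values (TMM), which centres the bulk of genes. As a share of all counts outside Rn45s, the 66 members made up 0.434% to 0.516% in Kaede-green 72h and 0.548% to 0.810% in Kaede-red 72h, and the Snrp family 0.0411% to 0.0570% and 0.0420% to 0.0537%. When counts outside Rn45s were taken as the library size, the median log2 fold change of all tested genes between red and green moved from 0.06 to 0.82 over both times and from 0.03 to 0.68 at 72h. Relative to that median the families kept their places. The Snrp median lay 0.41 below it at 72h, the Lsm median 0.78 below it and the Sf3a median 0.56 above it. Differences below are on the TMM scale, and so relative to the bulk of genes, unless another scale or fit is named.

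Tested gene by gene with edgeR, at an adjusted p under 0.05 over all genes, Kaede-red and Kaede-green cells differed in 16 of the 62 members over both times, 5 higher and 11 lower in red, in 4 members at 24h, all lower, and in 15 members at 72h, 2 higher and 13 lower. Of all genes tested, 20.3% were called over both times (10% higher, 10.3% lower), 7.50% at 24h (3.22% higher, 4.28% lower) and 16.8% at 72h (8.06% higher, 8.76% lower). The members' calls made up 6.45% of the tested members at 24h, 24.2% at 72h (21% lower) and 25.8% over both times. With counts outside Rn45s as library size the split turned to 40 higher of 41 called over both times, 40 of 40 at 24h and 23 of 26 at 72h. On that scale the calls over both times of Hnrnph1 (0.14), Srsf5 (0.00), Srsf3 (0.15), Snrpd1 (0.08), Snrpb2 (0.33) and Lsm6 (0.02) and those at 72h of Srsf3 (0.04) and Hnrnpf (0.04) had log2 fold changes at or above 0. With the Rn45s share of each library as a covariate no member was called in these 3 comparisons. The comparison over both times uses the libraries of the other two. The median log2 fold change of all tested members was 0.05 at 24h, -0.18 at 72h and -0.05 over both times, beside 0.05, 0.03 and 0.06 for all tested genes.

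The libraries of the groups separated fully for 5 members higher and 3 lower in Kaede-red cells at 24h, beside 7.09% and 5.43% of all tested genes. At 72h they separated for 4 members higher and 9 lower, beside 13.0% and 9.52%. Over both times, with all red against all green libraries, they separated for Hnrnpul1 and Srsf2 (higher) and for Snrpg and Srsf3 (lower), beside 1.19% and 1.74%.

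**Figure D2:**
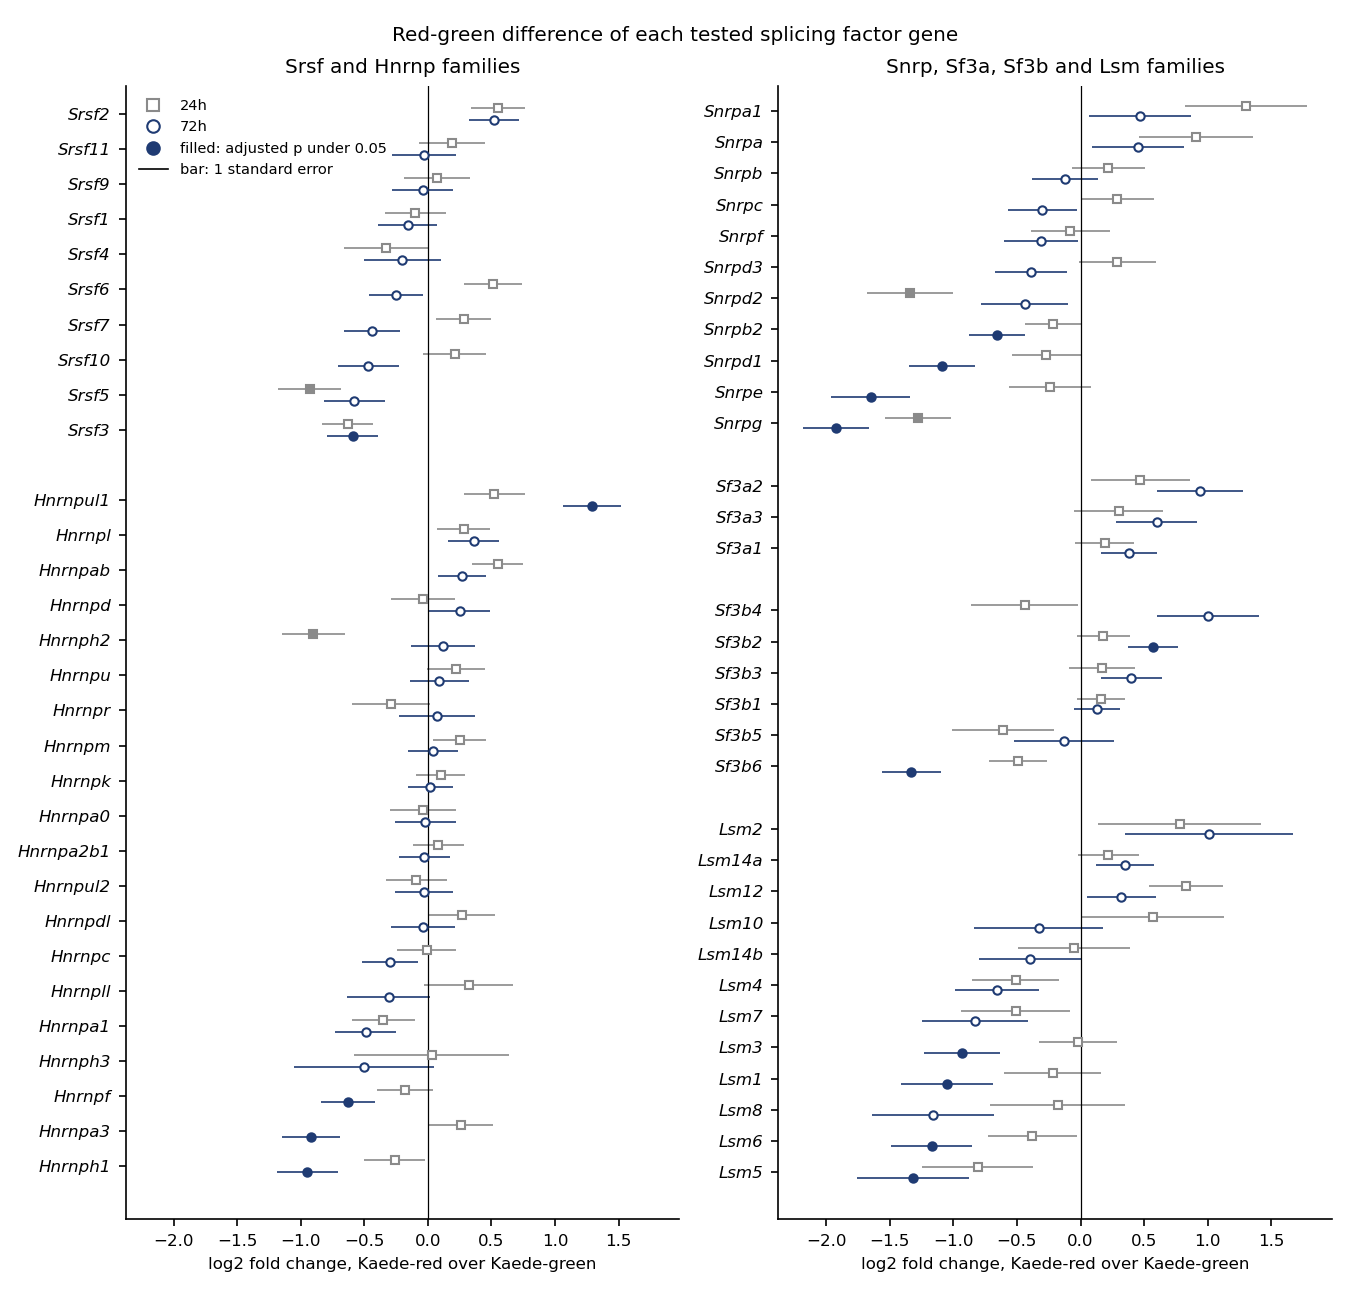
Log2 fold change of Kaede-red over Kaede-green for each of the 62 tested members, at 24h (grey squares) and 72h (blue circles), with 1 standard error (bars), in family order. Filled symbols passed an adjusted p of 0.05, which 4 members did at 24h and 15 at 72h, 13 of them to the left of 0.

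The Sm ring held the largest falls among the called members. Of its 7 tested genes, 2 were called lower in red cells at 24h, 3 at 72h and 4 with both times together, and none was higher. At 72h 7 of 7 had a log2 fold change below 0, with a median of -0.44. Sm and LSm genes have processed pseudogenes that can share their reads, and how such reads were counted is not given in the sources used here, which makes the levels of these genes uncertain. Snrpg, which encodes SmG, had 20.6, 17.2, 14.8 and 15.5 CPM in Kaede-green 24h and 4.92, 6.81, 9.44 and 7.04 in Kaede-red 24h. At 72h it had 15, 20.5, 15.1 and 15.3 in green and 3.68, 6.08, 4.99 and 2.78 in red cells. All red libraries lay below all green libraries, which 1.74% of all tested genes did in this direction. The log2 fold change of Snrpg was -1.28 ± 0.26 (standard error) at 24h (adjusted p = 0.00173), -1.92 ± 0.26 at 72h (adjusted p = 2.65e-06) and -1.60 ± 0.18 over both times (adjusted p = 1.0e-07), and no single library decided any of these calls.

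Snrpe, which encodes SmE, was called at 72h and over both times (-0.94 ± 0.22, adjusted p = 0.00227). It had 13.4, 6.55, 15 and 6.13 CPM in Kaede-green 24h and 6.76, 7.18, 12.7 and 9.05 in Kaede-red 24h, which overlapped (log2 fold change -0.24 ± 0.32, adjusted p = 0.736). At 72h it had 9.87, 19.2, 12.2 and 12.5 in green and 3.33, 4.87, 7.11 and 2.74 in red cells. These groups did not overlap, and the log2 fold change was -1.65 ± 0.31 (adjusted p = 0.000271). The change of the red-green difference between the times was -1.41 ± 0.44 for Snrpe and did not pass the test (adjusted p = 0.105).

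Snrpd2, which encodes SmD2, was called at 24h and over both times. It had 7.81, 11.5, 7.14 and 10.6 CPM in Kaede-green 24h against 4.30, 2.55, 3.08 and 4.33 in Kaede-red 24h, with no overlap and a log2 fold change of -1.34 ± 0.34 (adjusted p = 0.0111). At 72h the values were 6.94, 8.24, 2.68 and 3.64 against 3.64, 3.78, 5.90 and 2.76, which overlapped. The call over both times was -0.89 ± 0.24 (adjusted p = 0.00734). Snrpd1, which encodes SmD1, was called lower in red cells at 72h (log2 fold change -1.09 ± 0.26, adjusted p = 0.00328) and over both times (-0.68 ± 0.19, adjusted p = 0.00926). Its 72h values were 13.2, 11, 13.4 and 5.98 in green and 4.42, 6.10, 5.14 and 4.65 in red cells, where the fourth green library fell within the red range. The remaining tested Sm genes Snrpb, Snrpd3 and Snrpf had log2 fold changes of -0.12, -0.39 and -0.31 at 72h and did not pass the test. Snrpf shares 735 of its 861 exon bases with counted genes on the other strand, and whether the counting used strand is not given in the sources used here.

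The LSm ring genes, Lsm1 to Lsm8, lay lower in Kaede-red cells at 72h in 7 of 8 cases, with a median log2 fold change of -0.99, and 4 were called lower. With counts outside Rn45s as library size 0 were called lower and 1 was called higher at 72h. Their median on that scale was -0.34, which lay 1.02 below that of all genes. With an offset for gene length and GC content the median was -0.56, which lay 0.49 below that of all genes in place of 1.02, and 2 were called lower. Short genes still lay low with this offset. Tested genes of up to 1000 bases had a median of -0.32 and those of 1000 to 1500 bases -0.18, beside -0.07 for all tested genes. In the fit without an offset no ring gene was called at 24h, with a median of -0.30. Lsm6 had 6.21, 10.4, 6.32 and 5.46 CPM in Kaede-green 72h and 3.37, 3.05, 2.27 and 3.60 in Kaede-red 72h, with no overlap (log2 fold change -1.17 ± 0.32, adjusted p = 0.00935). Its call was lost without Kaede-green 72h replicate 2, its highest library (adjusted p = 0.0661). Over both times Lsm6 had a log2 fold change of -0.77 ± 0.24 (adjusted p = 0.0192), and that call was lost without Kaede-green 24h replicate 3, Kaede-red 24h replicate 1 or Kaede-green 72h replicate 2 (adjusted p up to 0.131).

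Lsm5 had 1.46, 3.97, 1.95 and 3.90 CPM in Kaede-green 72h and 1.68, 1.16, 0.605 and 0.906 in Kaede-red 72h, which overlapped. These values rest on 4 to 46 counts a library. The log2 fold change was -1.32 ± 0.44 at 72h (adjusted p = 0.0347) and -1.07 ± 0.31 over both times (adjusted p = 0.0126). The 72h call of Lsm5 was lost in 5 of the 16 fits that left out a library (Kaede-green 72h replicates 2 and 4, Kaede-red 72h replicates 2, 3 and 4), with an adjusted p of up to 0.14.

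Lsm1, the subunit that sets apart the ring of mRNA decay, had 4.02, 5.19, 3.16 and 3.12 CPM in Kaede-green 72h and 1.92, 1.69, 1.97 and 1.85 in Kaede-red 72h. The groups did not overlap, the log2 fold change was -1.05 ± 0.36 (adjusted p = 0.0387), and 8 of the 16 fits without a library lost the call, those without Kaede-red 24h replicate 2 or 3, Kaede-green 72h replicate 1 or 2 or any Kaede-red 72h library (adjusted p up to 0.137). Lsm3 had 5.12, 11.6, 6.32 and 5.98 in Kaede-green 72h and 2.70, 4.03, 6.05 and 3.12 in Kaede-red 72h, with overlap (log2 fold change -0.93 ± 0.30, adjusted p = 0.0308). Its call was lost without Kaede-green 72h replicate 2 or Kaede-red 72h replicates 1, 2 or 4 (adjusted p up to 0.203). Lsm8, the subunit that sets apart the U6 ring, had a log2 fold change of -1.16 ± 0.48 at 72h that did not pass the test (adjusted p = 0.0919). Lsm2, with at most 2.72 CPM and no count in at least 1 green library, was the ring member above 0 (1.01 ± 0.66, adjusted p = 0.316).

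Outside the rings, the LSm-domain gene Lsm12 was higher in red cells over both times (log2 fold change 0.57 ± 0.20, adjusted p = 0.0378). It had 3.35, 4.51, 5.61 and 4.09 CPM in Kaede-green 24h, 8.52, 9, 5.99 and 8.4 in Kaede-red 24h, 5.85, 3.97, 4.86 and 9.10 in Kaede-green 72h and 6.81, 7.77, 7.56 and 7.71 in Kaede-red 72h. The groups separated at 24h and overlapped at 72h, and 11 of the 16 fits without a library lost the call, all but those without Kaede-green 24h replicate 3, Kaede-red 24h replicate 3, Kaede-green 72h replicate 4 or Kaede-red 72h replicates 1 or 3 (adjusted p up to 0.0988).

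The 4 genes of proteins specific to the U1 and U2 particles went in both directions, with a median of 0.07 at 72h. Snrpa1, which encodes the U2 A' protein, was higher in Kaede-red cells over both times (log2 fold change 0.88 ± 0.31, adjusted p = 0.0422). It had 1.67, 2.05, 2.04 and 0.409 CPM in Kaede-green 24h against 3.43, 3.04, 6.17 and 3.36 in Kaede-red 24h, and 1.46, 5.80, 2.19 and 2.08 against 3.05, 4.06, 4.99 and 4.09 at 72h. Only the 24h groups separated, the lowest green library held 1 count, and 10 of the 16 fits without a library lost the call, all but those without Kaede-green 24h replicates 2 or 3, Kaede-red 24h replicates 2 or 4, Kaede-green 72h replicate 2 or Kaede-red 72h replicate 1 (adjusted p up to 0.0917). Snrpb2, the partner of its product on U2, was singled out after its values were seen and was lower, with log2 fold changes of -0.66 ± 0.22 at 72h (adjusted p = 0.0347) and -0.44 ± 0.16 over both times (adjusted p = 0.0437). The 72h call of Snrpb2 was lost without any of replicates 1, 2 and 3 of Kaede-green 72h or 1, 2 and 4 of Kaede-red 72h (adjusted p up to 0.138). Its call over both times was lost in 12 fits, all but those without Kaede-green 24h replicates 1, 2 or 4 or Kaede-green 72h replicate 4 (adjusted p up to 0.124). The U1 genes Snrpa and Snrpc were not called in any red-green comparison.

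SF3A and SF3B join U2 to the branch point. No SF3A gene was called in any comparison, and the SF3B median was -0.14 at 24h, with 3 genes above and 3 below 0. All 3 SF3A genes and 4 of 6 SF3B genes had a log2 fold change above 0 at 72h, with a median of 0.40 over the 9, and 2 SF3B genes were called in opposite directions. Sf3b2, a large subunit that contacts the pre-mRNA, had 20.5, 20.2, 22.6 and 16.1 CPM in Kaede-green 72h and 29.2, 24.8, 29.9 and 33.9 in Kaede-red 72h. The groups did not overlap (log2 fold change 0.57 ± 0.20, adjusted p = 0.044), but the call was lost in 9 fits, those without Kaede-green 24h replicate 2 or 3, any Kaede-green 72h library or Kaede-red 72h replicate 1, 3 or 4 (adjusted p up to 0.14). It was also lost with RLE size factors (adjusted p = 0.0651). Sf3a2 had a log2 fold change of 0.94 ± 0.34 at 72h (adjusted p = 0.0521), with 2.34 to 4.89 CPM in green and 5.44 to 7.52 in red cells, and it shares 429 of 2232 exon bases with a gene on the other strand.

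Sf3b6 was the SF3B gene called lower in red cells. At 72h it had 21.9, 29.6, 21.9 and 19 CPM in green and 9.47, 10.4, 9.38 and 7.45 in red cells, with no overlap (log2 fold change -1.33 ± 0.23, adjusted p = 9.04e-05). At 24h it had 20.6, 25.8, 29.1 and 12.3 against 13.9, 15.9, 19.6 and 14.3, which overlapped (-0.49 ± 0.23, adjusted p = 0.225). The value over both times was -0.91 ± 0.16 (adjusted p = 9.68e-05), and no single library decided the 72h call or the call over both times.

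**Figure D3:**
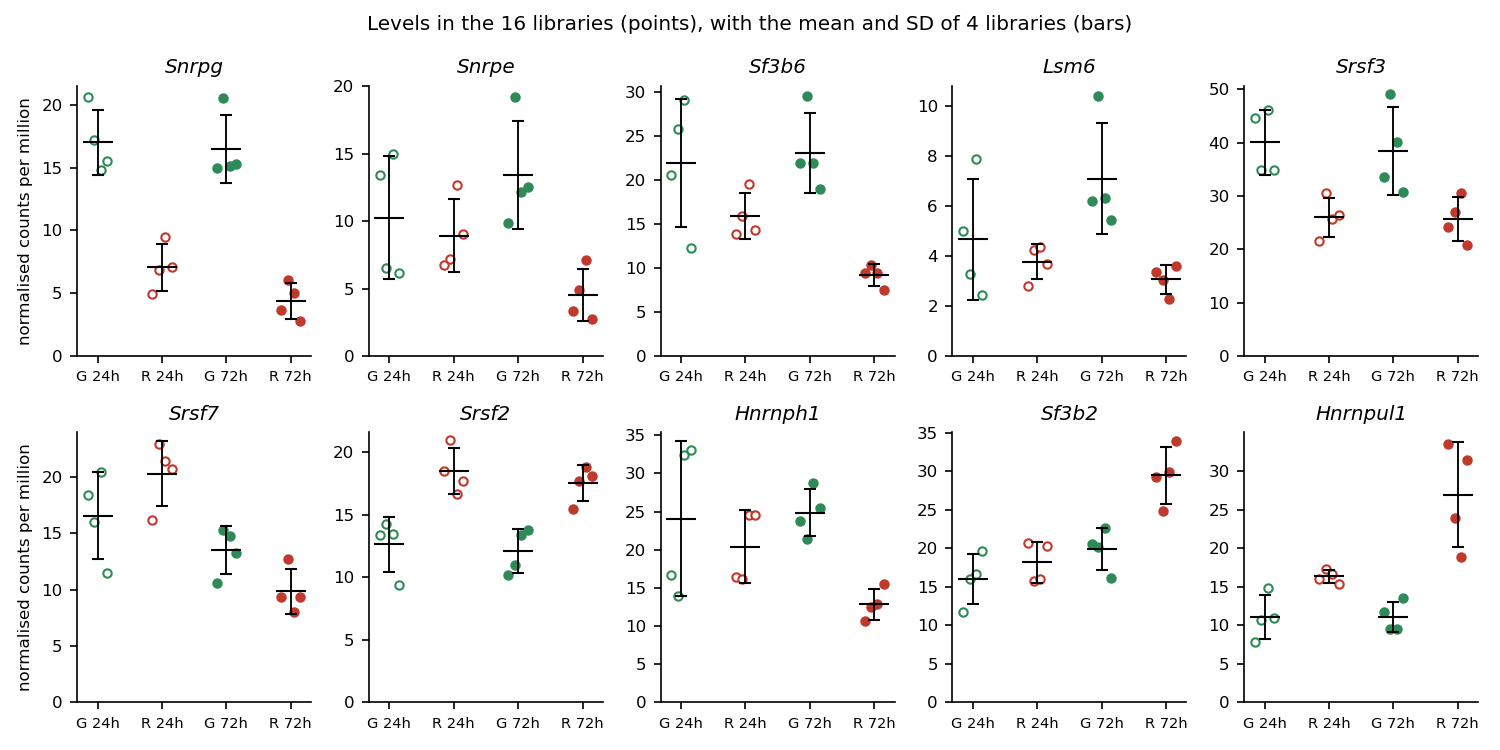
Normalised CPM of 10 members in each of the 16 libraries (points), with the mean and SD of the 4 libraries of a group (bars), for Kaede-green (G) and Kaede-red (R) cells at 24h (open) and 72h (filled). Snrpg and Srsf3 are lower in all red than in all green libraries, Srsf2 and Hnrnpul1 are higher, and Snrpe, Sf3b6, Lsm6 and Hnrnph1 separate at 72h and overlap at 24h.

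The SR protein genes divided. Over both times Srsf2 was higher, and Srsf3 and Srsf5 were lower, in Kaede-red cells, with 7 of the 10 tested genes not called and a family median of -0.10. Srsf3, the smallest SR protein, had 44.6, 34.8, 46.1 and 34.8 CPM in Kaede-green 24h, 21.6, 30.5, 25.6 and 26.4 in Kaede-red 24h, 33.6, 49.2, 40.1 and 30.7 in Kaede-green 72h and 24.2, 27, 30.5 and 20.8 in Kaede-red 72h. Every red library lay below every green one, although the closest pair was 30.5 against 30.7, and the log2 fold change over both times was -0.61 ± 0.14 (adjusted p = 0.0018). Srsf2, the SR protein SC35, had 13.4, 14.3, 13.5 and 9.41 in Kaede-green 24h, 18.5, 21, 16.7 and 17.7 in Kaede-red 24h, 10.2, 11, 13.4 and 13.8 in Kaede-green 72h and 15.5, 17.7, 18.8 and 18.1 in Kaede-red 72h. Every red library lay above every green one, as was the case for 1.19% of all tested genes, and the log2 fold change was 0.53 ± 0.15 (adjusted p = 0.00819). With the length and GC offset Srsf2 had a log2 fold change of 0.32 and its call was lost (adjusted p = 0.118). In that fit the median of all tested genes was -0.11 over both times, in place of 0.06.

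Srsf5 was called lower in red cells at 24h (log2 fold change -0.93 ± 0.25, adjusted p = 0.0151) and over both times (-0.75 ± 0.17, adjusted p = 0.00158). Its 24h values were 29, 18.8, 42 and 48.3 CPM in green and 12.6, 21.3, 17.8 and 21.3 in red cells, where the second green library lay inside the red range. The 24h call of Srsf5 was lost without Kaede-green 24h replicate 3 or 4 or Kaede-red 24h replicate 1 (adjusted p up to 0.0758). At 72h 9 of 10 Srsf genes had a value below 0, with a median of -0.22, and Srsf3 alone was called (-0.59 ± 0.20, adjusted p = 0.0347), a call lost without Kaede-green 72h replicate 2 or 3 or Kaede-red 72h replicate 1, 2 or 4 (adjusted p up to 0.135).

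The Hnrnp family, the largest, had a median of -0.01 over both times and -0.02 at 72h. Hnrnpul1, which encodes a nuclear RNA-binding protein of the hnRNP U-like group, had the largest rise among the called members. It had 7.81, 10.7, 14.8 and 11 CPM in Kaede-green 24h, 16, 17.3, 16.7 and 15.4 in Kaede-red 24h, 11.7, 9.46, 9.49 and 13.5 in Kaede-green 72h and 33.5, 23.9, 18.8 and 31.4 in Kaede-red 72h. The red libraries lay above the green ones at both times. The log2 fold change of Hnrnpul1 was 0.52 ± 0.24 at 24h (adjusted p = 0.194), 1.29 ± 0.23 at 72h (adjusted p = 0.000106) and 0.91 ± 0.16 over both times (adjusted p = 9.63e-05), and no single library decided the 2 calls.

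Hnrnph1 and Hnrnph2, close relatives that bind G-rich sequence, were called at different times, although neither passed the test of a change between the times in the main fit. Hnrnph1 had 23.8, 21.4, 28.7 and 25.5 CPM in Kaede-green 72h and 10.6, 12.5, 12.9 and 15.5 in Kaede-red 72h, with no overlap (log2 fold change -0.95 ± 0.24, adjusted p = 0.00489). At 24h its groups overlapped (-0.26 ± 0.24, adjusted p = 0.594), and over both times the value was -0.61 ± 0.17 (adjusted p = 0.01). Hnrnph2 had 13.9, 29.5, 30.6 and 16.4 in Kaede-green 24h and 12.1, 16.2, 9.80 and 11.2 in Kaede-red 24h, with overlap (-0.90 ± 0.25, adjusted p = 0.0245), whereas at 72h the value was 0.12 ± 0.25 (adjusted p = 0.796). The 24h call of Hnrnph2 was lost without Kaede-green 24h replicate 2 or 3 or Kaede-red 24h replicate 1, 3 or 4 (adjusted p up to 0.131). As near relatives, both can share reads, and how such reads were counted is not given in the sources used here.

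The remaining Hnrnp calls were smaller or less stable. Hnrnpab was higher over both times (0.41 ± 0.14, adjusted p = 0.0357), with overlapping groups and the call lost in 9 fits, all but those without Kaede-green 24h replicate 4, Kaede-red 24h replicates 2, 3 or 4, Kaede-green 72h replicates 1 or 4 or Kaede-red 72h replicate 3 (adjusted p up to 0.112). Hnrnpf was lower at 72h (-0.63 ± 0.21, adjusted p = 0.0372), with 137, 137, 79.1 and 60.6 CPM in green and 59.7, 65.2, 75.2 and 66 in red cells, where 2 green libraries lay above all others and the fourth lay inside the red range. Its call was lost without Kaede-red 24h replicate 2, Kaede-green 72h replicate 1 or 2 or Kaede-red 72h replicate 1, 2 or 4 (adjusted p up to 0.162). Hnrnpa3, which was singled out after its values were seen, had 20.1, 20.8, 19.2 and 15.6 in Kaede-green 72h, 7.87, 9.23, 12.9 and 10.6 in Kaede-red 72h and 9.48 to 12.5 in Kaede-green 24h. Its log2 fold change at 72h was -0.92 ± 0.23 (adjusted p = 0.00443), and all green libraries of 72h lay above all green libraries of 24h (0.75 ± 0.25, adjusted p = 0.401).

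Leaving out single libraries moved the counts of members called. At 72h the count was 15 with all libraries, 8 without Kaede-green 72h replicate 2 or Kaede-red 72h replicate 4, and 9 without Kaede-red 72h replicate 1 or 2. At 24h it was 4 with all libraries and 2 without Kaede-green 24h replicate 3 or Kaede-red 24h replicate 1. The members lower at 72h whose calls survived every such fit were Snrpg, Snrpe, Snrpd1, Sf3b6, Hnrnph1 and Hnrnpa3. With counts outside Rn45s as library size, the 72h calls of Snrpd1, Hnrnph1 and Hnrnpa3 were lost, and those of Snrpg, Snrpe and Sf3b6 were kept. None of these members was called at 72h with the Rn45s share as a covariate.

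Between 24h and 72h, Kaede-red cells changed in 6 members, 2 higher and 4 lower at 72h, and Kaede-green cells in none. The libraries of the 2 times separated fully for 7 members higher and 9 lower in red cells, beside 11.8% and 8.76% of all tested genes, and for Hnrnpa3 (higher) and no member lower in green cells, beside 1.92% and 1.08%. Of all genes tested, 8.68% were called in Kaede-red cells (4.92% higher, 3.76% lower) and 0% in Kaede-green cells. In green cells 4 members and 835 genes had an unadjusted p under 0.05 by edgeR, and DESeq2 called 13 genes and no member. The time comparison of red cells shares the Kaede-red 72h libraries with the red-green comparison at 72h.

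Srsf7, an SR protein that also takes part in mRNA export, fell in Kaede-red cells from 16.2, 22.9, 21.4 and 20.7 CPM at 24h to 9.39, 12.7, 8.02 and 9.35 at 72h. The groups did not overlap, the log2 fold change was -1.02 ± 0.21 (adjusted p = 0.00278), and the call of Srsf7 was kept in every fit without a library. In Kaede-green cells Srsf7 had 18.4, 16, 20.4 and 11.5 at 24h and 10.6, 15.3, 14.8 and 13.3 at 72h. The means of these green groups were 16.6 and 13.5, and their difference was not called. The change of the red-green difference of Srsf7 between the times was not called either. A fall particular to red cells was thus not shown. Lsm3 fell from 6.85, 8.51, 10.7 and 8.79 to 2.70, 4.03, 6.05 and 3.12 (log2 fold change -1.19 ± 0.28, adjusted p = 0.00793), with no overlap, and its call was lost without Kaede-red 72h replicate 1 (adjusted p = 0.0561).

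Snrpe (log2 fold change -1.04 ± 0.30, adjusted p = 0.0275) and Sf3b6 (-0.79 ± 0.22, adjusted p = 0.024) also fell in red cells, whereas Hnrnpul1 (0.73 ± 0.21, adjusted p = 0.0256) and Sf3b2 (0.69 ± 0.19, adjusted p = 0.0217) rose. Each of these 4 calls failed in 4 of the 16 fits that left out a library, always those without Kaede-red 72h replicates 1 and 4 and Kaede-red 24h replicate 3, and in addition Kaede-red 24h replicate 4 (Snrpe and Hnrnpul1) or 2 (Sf3b6 and Sf3b2), with adjusted p up to 0.148, 0.126, 0.135 and 0.0891 respectively. The count of 6 became 1 without Kaede-red 72h replicate 1, and 2 without Kaede-red 72h replicate 4 or Kaede-red 24h replicate 3. Medians in red cells were -0.53 for the Snrp and -0.55 for the Lsm family, beside -0.01 for all tested genes, and 0.41 for Sf3a. With the length and GC offset they were -0.26 for Snrp and -0.21 for Lsm.

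Whether the red-green difference itself changed from 24h to 72h was tested as an interaction. It was called for 0 of 62 members by edgeR and for 0.757% of all genes tested. At an unadjusted p under 0.05 there were 10 members, and DESeq2 called 1, Hnrnpa3. The values of Hnrnpa3 (-1.18 ± 0.33, adjusted p = 0.0721), Snrpe (-1.41 ± 0.44, adjusted p = 0.105), Hnrnph2 (1.02 ± 0.35, adjusted p = 0.148) and Sf3b6 (-0.85 ± 0.32, adjusted p = 0.196) were among them. By edgeR as fitted here, a member called at 72h and not at 24h was thus not shown to differ between the times, whereas DESeq2 called that difference for Hnrnpa3 and edgeR with counts outside Rn45s as library size called it for 2 members. The length and GC offset called it for 1 Hnrnp gene, with a value above 0. A replicate block within time called it for 1 member.

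Gene length moved with the red-green difference across the whole transcriptome. Lengths here are of the merged exons of protein-coding transcripts, with a median of 1380 bases for the Sm ring, 1030 for the LSm ring, 2620 for Srsf, 3540 for Hnrnp and 3360 for all tested genes. At 72h the tested genes of up to 1000 bases had a median log2 fold change of -0.80 and 43% of them were called lower, those of 1000 to 1500 bases had -0.29 and 15.9%, and those of 2500 to 4000 bases had 0.12 and 5.15%. The members in these classes had 2 of 6, 4 of 11 and 5 of 19 called lower. The first of these shares lay below that of all genes of the same length and the other 2 above it, on few members each. In the classes of 1500 to 2500 bases and above 4000 bases, 1 of 12 and 1 of 14 members were called lower. Of all tested genes in these 2 classes, 7.86% and 4.89% were called lower.

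**Figure D4:**
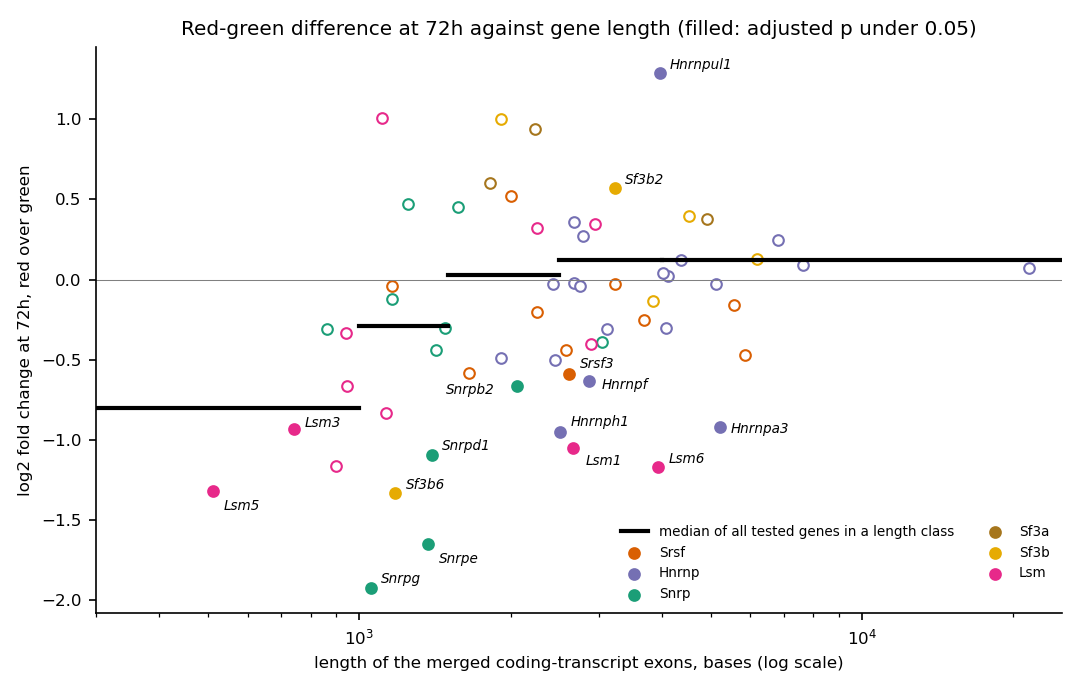
Log2 fold change of Kaede-red over Kaede-green at 72h against the length of the merged exons, in bases on a log scale, for the 62 tested members (points, coloured by family, filled where adjusted p was under 0.05). Black lines give the median of all tested genes in each length class, from -0.80 up to 1000 bases to 0.12 above 2500 bases, and Snrpg, Snrpe, Sf3b6 and Lsm6 lie below the line of their class.

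When each gene's expected dependence on length and GC content in each library was taken into the fit as an offset, 11 members were called at 72h, 10 lower and 1 higher. The offset did not remove the whole length trend. At 72h tested genes of up to 1000 bases still had a median of -0.32, with 23.5% called lower. Those of 1000 to 1500 bases had -0.18 and 12.3%, and those above 4000 bases had 0.01 and 7.34%. Snrpg (-1.67), Snrpe (-1.54), Lsm6 (-1.26), Lsm1 (-1.21), Sf3b6 (-0.95), Hnrnpa3 (-0.93), Hnrnph1 (-0.92), Snrpd1 (-0.85), Hnrnpf (-0.76), Srsf3 (-0.58) and Hnrnpul1 (1.07) passed with it, and Lsm3, Lsm5, Snrpb2 and Sf3b2 did not. Over both times the calls of Srsf2 (0.32, adjusted p = 0.118), Hnrnpab (0.10, adjusted p = 0.7), Lsm12 (0.39, adjusted p = 0.173) and Lsm5 (-0.58, adjusted p = 0.202) were lost with it. Of the red cells' changes with time, that of Srsf7 alone passed with this offset (-0.81, adjusted p = 0.0123).

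The share of Rn45s moved with the groups as well. With that share as a covariate, no member was called in any of the 3 red-green comparisons, and 1.62% of all tested genes were called over both times, against 20.3% without it. With the covariate, 4 members each over both times and at 72h and 7 at 24h had an unadjusted p under 0.05. Since red libraries had lower shares of Rn45s than most green ones, this share and the groups cannot be fully told apart. The fall of Srsf7 in red cells with time was called with the covariate (-1, adjusted p = 0.0319).

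Markers of dividing cells summed to 71.6 to 107 CPM in Kaede-green 72h and 56.6 to 64.4 in Kaede-red 72h, against 59.8 to 85.6 and 60.2 to 101 at 24h. At 72h 2 of the 11 tested were lower in red cells and none was higher, with a median log2 fold change of -0.70. Their part in the differences of the Sm and LSm genes was not tested.

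The rest of the splicing machinery was taken from a list of 141 genes, of which 139 were counted and 131 tested. In red cells 13 of these were higher and 10 lower over both times, 2 higher and 0 lower at 24h, and 8 higher and 13 lower at 72h, with medians of 0.02, 0.05 and -0.01. These calls made up 17.6%, 1.53% and 16% of the list, below the 20.3%, 7.50% and 16.8% of all tested genes. Over both times the largest rises were those of U2af1l4, a relative of the small U2AF subunit (1.22 ± 0.36), the U5 GTPase gene Eftud2 (1.07 ± 0.24), Ctnnbl1, a partner of the Prp19 complex (0.96 ± 0.25), and the RNA helicase gene Aqr (0.85 ± 0.27). The largest falls were those of Pnn (-1.14 ± 0.27), the SR-like regulator Tra2a (-1.03 ± 0.19), Prpf38a (-0.70 ± 0.16) and Magoh, a core gene of the exon junction complex (-0.68 ± 0.18).

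At 24h Ctnnbl1 (1.36 ± 0.38, adjusted p = 0.0221) and Clns1a, whose product loads Sm proteins onto the assembly machinery (1.18 ± 0.36, adjusted p = 0.0426), were the genes of the list called. At 72h Ddx41 (1.27 ± 0.36), Eftud2 (1.11 ± 0.33), Aqr (1.09 ± 0.36) and Srrm1 (1.06 ± 0.21) rose most. Rbfox2, a regulator of alternative exons (-1.72 ± 0.41), Pnn (-1.49 ± 0.38), Snrnp25 of the minor spliceosome (-1.42 ± 0.42) and Tra2a (-1.23 ± 0.26) were lowest. In the class of catalytic and Prp19 proteins 4 of 32 were higher and 4 lower at 72h, in that of other snRNP proteins 1 of 23 was higher and 2 lower, and in the SMN assembly class 0 of 11 were called.

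The promoters of 4 members called at 72h, 3 lower (Snrpe, Lsm5 and Lsm6) and 1 higher (Hnrnpul1), are printed to show what sequence precedes genes that differed in the same or in opposite directions. Each runs 5′ to 3′ on the gene's own strand over 150 bases, from 170 to 21 bases before the RefSeq start, in build GRCm38.p6. Capitals mark matches, on either strand, to the E-box CACGTG, the CCAAT box CCAAT, the GC box GGGCGG, the ETS core CCGGAAG or the TATA box TATAAA. No motif of these is contained in another.
Snrpe promoter, chr1:133610301-133610450, minus strand: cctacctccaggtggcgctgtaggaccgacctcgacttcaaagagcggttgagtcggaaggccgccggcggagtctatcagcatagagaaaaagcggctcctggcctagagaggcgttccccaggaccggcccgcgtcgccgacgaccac
Lsm5 promoter, chr6:56704720-56704869, minus strand: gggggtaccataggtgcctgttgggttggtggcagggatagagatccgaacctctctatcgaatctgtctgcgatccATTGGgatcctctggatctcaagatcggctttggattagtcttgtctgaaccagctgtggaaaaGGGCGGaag
Lsm6 promoter, chr8:78821173-78821322, minus strand: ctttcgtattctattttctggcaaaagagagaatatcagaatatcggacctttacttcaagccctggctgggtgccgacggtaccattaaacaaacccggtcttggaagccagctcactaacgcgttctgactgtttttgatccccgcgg
Hnrnpul1 promoter, chr7:25754780-25754929, minus strand: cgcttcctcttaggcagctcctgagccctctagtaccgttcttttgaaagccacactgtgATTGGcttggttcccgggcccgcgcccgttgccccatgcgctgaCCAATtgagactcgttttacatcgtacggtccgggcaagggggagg
Lsm5 holds 1 CCAAT box and 1 GC box, Hnrnpul1 holds 2 CCAAT boxes, and the letters of these 5 motifs are not in the windows of Snrpe and Lsm6.

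RefSeq gave such a window for 57 members. The CCAAT box was found in 43.9% of them, in 29.4% of the 7300 windows of tested genes and in 25.4% of all 27025 windows. The GC box was found in 50.9%, 50.8% and 26.6%, and the ETS core in 15.8%, 10.7% and 4.57%. The E-box was found in 3.51%, 5.92% and 4.01% and the TATA box in 3.51%, 3.26% and 8.28%. Among the 11 windows of members lower at 72h, 4 held a CCAAT box, 5 a GC box, 4 an ETS core and none an E-box or a TATA box. A match describes the letters only, and these counts were not tested.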

How the data were processed

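RNA of sorted tumour CD11b+ cells was sequenced from 16 libraries, 4 in each of 4 groups taken from the labels. The authors deposited raw counts per gene, made with Trim Galore, FastQC, HISAT2 on mm10 and featureCounts, as named in their notes and methods. Tool versions, the strand setting and the treatment of reads with several matches are not given in the sources used here. No molecular identifiers are described, so errors follow reads, not molecules. The depth was 3216858 to 15423085 counts a library. Each point was an independent mouse according to the study, and p-values measure the spread between these libraries.

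Counts of all 24421 genes were tested with edgeR 4.0.16 (R 4.3.3, limma 3.58.1) by its quasi-likelihood test on all 16 libraries, with 1 mean per group, TMM factors and filterByExpr defaults, which kept 9642 genes. P-values were adjusted by Benjamini-Hochberg over all of these, and a gene was called at an adjusted p under 0.05. CPM use the TMM-scaled library size. The code was tested on simulated counts with known changes. DESeq2 1.42.0, other scalings, filters, a length and GC offset (99.2% of tested genes had both), the Rn45s share, replicate blocks and leaving out each library were alternatives. Libraries of a group differed by more than counting noise, with a chi-square per gene of 3.37 to 105 over 24 pairs, and none was merged.

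The genes and lists were chosen with earlier results of these data known. Named with values were the called members, at most 8 rises and 8 falls per red-green comparison and 5 in the others, the 2 highest per length in each family, and at most 4 other splicing genes per direction. Promoters are from RefSeq on GRCm38.p6, the same build as mm10.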

Additional observations from a re-analysis of the deposited data

Results flagged for a closer look

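Of 92 values of the named members in groups of 4 libraries, 6 held a library far from the other three, in 5 genes, and chance flags about 1 in 20 groups. Values are log2 CPM. Srsf2 was lowest in Kaede-green 24h replicate 4, at 3.26, with the next library at 3.76. Snrpa1 was lowest in Kaede-green 24h replicate 4, at -0.78, with the next at 0.88, and highest in Kaede-red 24h replicate 3, at 2.67, with the next at 1.85. Snrpb2 was highest in Kaede-green 24h replicate 3, at 4.48, with the next at 3.94. Snrpg was highest in Kaede-green 72h replicate 2, at 4.37, with the next at 3.96. Lsm12 was lowest in Kaede-red 24h replicate 3, at 2.62, with the next at 3.10. The value of Snrpa1 at -0.78 rests on 1 count.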

How the results depend on the processing

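Counts of called members with all libraries were 16 over both times, 4 at 24h, 15 at 72h, 0 in green and 6 in red cells with time, and 0 for the interaction of colour and time. With counts outside Rn45s as library size they were 41, 40 and 26 in the red-green comparisons and 2 for the interaction, and with the Rn45s share as covariate 0, 0 and 0, and 1 in red cells with time. DESeq2 gave 7 at 24h, 14 in red cells with time and 1 for the interaction. A minimum of 10 counts in every library gave 7, 12 and 1, the groups compared alone 14 in red cells, and the length and GC offset 1 in red cells and 1 for the interaction. Leaving out 1 library gave 11 to 17, 2 to 6, 8 to 16, 0 to 0, 1 to 9 and 0 to 1. The scaling by counts outside Rn45s put the sign of Hnrnph1 (0.14), Srsf5 (0.00), Srsf3 (0.15), Snrpd1 (0.08), Snrpb2 (0.33) and Lsm6 (0.02) over both times, and of Srsf3 (0.04) and Hnrnpf (0.04) at 72h, the other way. The cause was not tested. Same-numbered green and red libraries correlated at 0.0493 to 0.153 at 24h and -0.0183 to 0.0287 at 72h. Those of different number correlated at -0.132 to 0.147 at 24h and -0.0556 to 0.0596 at 72h. These ranges overlap and cannot settle whether the number marks a pairing, and the main fit used none. With a replicate block the counts were 16, 5, 12, 0, 8 and 0, and with a replicate block within time 13, 5 and 12, and 1 for the interaction. At 72h the calls of Sf3b2 (adjusted p = 0.0509 and 0.0544), Lsm1 (0.0566 and 0.0921) and Lsm5 (0.0567 and 0.0585) were lost under both blocks and that of Hnrnpf under the block within time, as were those of Lsm12, Snrpb2 and Lsm6 over both times. With no filter on low counts the 72h calls of Srsf3, Snrpb2, Lsm1, Lsm3, Lsm5 and Hnrnpf were lost, those of Snrpd1, Snrpb2 and Lsm6 over both times, and that of Sf3b6 in red cells with time. Of the 656 values of named calls without a library 542 kept their call and 114 lost it, and of 381 under the other alternatives 280 kept it, 93 lost it and 8 turned direction. Green libraries held 1510 to 4208 counts over all members, which limits what their low members can show. Over all tested genes, calls in the red-green comparisons (both times, 24h, 72h) went from 1959, 723 and 1622 to 6123, 4647 and 3623 with counts outside Rn45s as library size and to 156, 206 and 101 with the Rn45s share, and the offset gave 1101 at 24h. In red cells with time 837 calls became 110 with the Rn45s share, 446 with the offset and 1604 with the groups compared alone. The 73 calls of the interaction ranged from 34 with the Rn45s share to 341 by DESeq2, and the 0 calls in green cells reached 37 with no filter.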
